A study of Mus musculus domesticus and Mus musculus domesticus x Mus musculus castaneus and Mus musculus castaneus with 27 samples.

Results

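Replicate 1 was set against replicate 2 of undifferentiated mouse pluripotent stem cells (PSC), within each of 3 genotypes, to describe which expression programmes moved with the replicate number. The comparison took 6 libraries, chosen by their column names: 3 of replicate 1 and 3 of replicate 2, forming 3 pairs. They are 6 of the 20 libraries with a matched column of counts and of the 27 samples of the study, which also profiled motor neurons (MN) made from such cells. Motor neurons labelled BL6, 129 and CAS129, replicates 1 and 2 of each, are set beside them in the last paragraph of these results. The BL6 cells came from the laboratory strain C57BL/6J, the CAST cells from CAST/EiJ, which is inbred and of castaneus origin, and the CAS129 cells from an F1 hybrid line of CAST/EiJ and 129S6/SvEv. All 6 libraries were labelled as stem cells with no treatment named, and shared the RNA kit, the DNase step on the column, the capture of polyadenylated RNA on oligo-dT beads and the random hexamer priming. For these libraries the labels give no passage, medium, density, oxygen level, batch or day of harvest; a batch note is attached only to samples not analysed here. Nor do they say that the replicates were separate cultures or that a number marks a shared culture or day. The p-values below therefore reflect how far the replicate difference varied among these 3 genotype pairs alone. That spread may be technical.

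Pluripotent stem cells can form all tissues of the body, and in the naive state they are held by a network of transcription factors that includes Pou5f1, Sox2, Esrrb and the Krüppel-like factors. Immediate early genes such as Fos and Egr1 are transcribed within minutes of a stimulus, among them serum, growth factors, stretch and dissociation, with no need for new protein. The serum response factor SRF and the coactivator YAP then drive genes of actin filaments, adhesion and matrix. When oxygen is short, prolyl hydroxylases stop marking the factor HIF for degradation, and HIF raises glucose transporters, glycolytic enzymes and Vegfa.

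All 6 libraries carried the pluripotency genes of their label. Pou5f1 stood at 697 and 1551 CPM in replicates 1 and 2 of BL6, at 1229 and 1784 CPM in CAST and at 817 and 1046 CPM in CAS129. CPM are the counts of a library scaled to a common total, after TMM factors were applied to library sizes. Sox2 ranged from 389 to 657 CPM and Esrrb from 389 to 811 CPM, and each of the 8 core pluripotency genes tested reached at least 1 CPM in all 6 libraries.

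Some features of the libraries are given first. Total counts were 12993761 and 13620056 in BL6, 8723599 and 8389385 in CAST, and 5509848 and 4497912 in CAS129. The BL6 pair carried a trend with base composition: its median log2 difference was 0.78 in the fifth of genes with the lowest GC content and -0.46 in the fifth with the highest. Uqcrb, an AT-rich transcript of a respiratory chain subunit, stood at 79.1 CPM in BL6 replicate 1 and 1.69 CPM in replicate 2 (chosen after its values were seen). A difference within a single pair does not show which library departed, and the cause of the trend was not tested. The CAST pair was flat, from -0.02 to -0.05, and the CAS129 pair ran the other way, from -0.34 to 0.07. Values corrected for GC content and transcript length are therefore given beside the main results. A further 1011 of the 13795 genes tested had no count in either library of some genotype, mostly the hybrid, so calls of such genes rest on the other pairs.

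**Figure D1:**
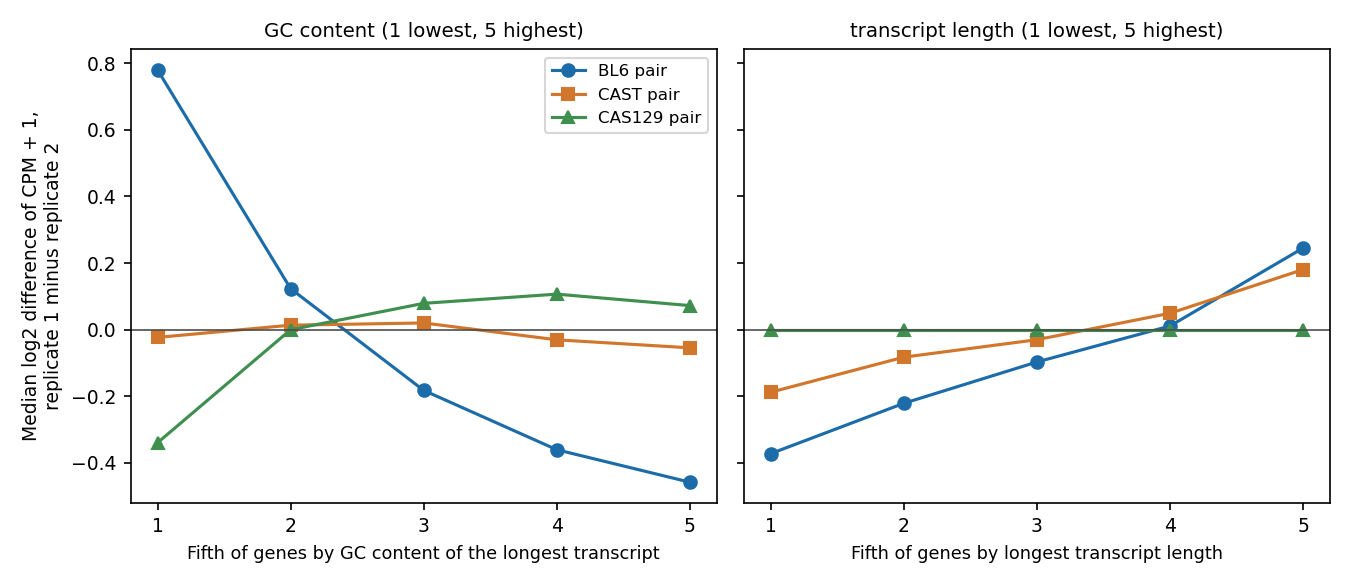
Median log2 difference of CPM + 1, replicate 1 minus replicate 2 (vertical axis), in 5 equal classes of the genes by GC content (left) or length (right) of the longest transcript, one line per genotype pair. The BL6 pair descends from 0.78 to -0.46 with rising GC content, the CAST pair stays near 0, and the CAS129 pair starts at -0.34. With length, the BL6 and CAST pairs both climb, from -0.37 to 0.25 and from -0.19 to 0.18.

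Genes called higher in replicate 1 included Fosb, Acta2 and Thbs1, and genes called lower included Ndrg1, Vegfa and Slc2a1, each described below. With genotype as a term, 97 of 13795 genes passed the test (0.703%), of which 61 were higher (0.442%) and 36 lower (0.261%) in replicate 1. A gene passed at an adjusted p under 0.05 (edgeR quasi-likelihood, Benjamini-Hochberg over all genes tested), and the fit left 2 residual degrees of freedom. Of the 61 higher genes, 54 were at least 1.5-fold higher in every pair and the other 7 had no count in CAS129. Of the 36 lower genes, 35 were at least 1.5-fold lower in every pair and 1 had no count in CAS129. As a description of genes chosen by the fit over these same pairs, the median difference of the higher genes was 2.59, 2.10 and 2.20 (log2) in the BL6, CAST and CAS129 pairs, and that of the lower genes -1.87, -1.79 and -1.48.

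Levels did not always separate over genotypes. All 3 replicate 1 libraries lay above all 3 of replicate 2 for 47 of the 61 higher genes, and below them for 27 of the 36 lower genes. Over all genes tested these shares were 3.52% and 3.33%. The called genes were chosen by the fit over these same libraries, so their separation is a description and no test. By the pairs alone, 322 genes were at least 1.5-fold higher (2.33%) and 237 at least 1.5-fold lower (1.72%) in replicate 1 of every pair.

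The lower calls depended most on the CAST pair. Without CAST replicate 1, 44 of the 61 higher calls and 6 of the 36 lower calls remained, among 78 genes called (0.578%: 0.519% higher and 0.0593% lower). With CAST replicate 2 left out, 56 and 14 remained among 127 (0.938%: 0.79% and 0.148%). Leaving out CAS129 replicate 1 kept 57 and 32 among 151 (1.11%: 0.715% and 0.398%), and CAS129 replicate 2 kept 61 and 35 among 279 (2.06%: 1.47% and 0.59%). Leaving out BL6 replicate 1 kept 57 and 36, and BL6 replicate 2 kept 58 and 35, while the genes called grew to 890 (6.64%) and 933 (6.91%). Removing a library leaves its partner without information, so each of these fits rests on 2 pairs and 1 residual degree of freedom. With offsets for GC content and length, 46 and 28 remained among 119 calls (0.863%).

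**Figure D2:**
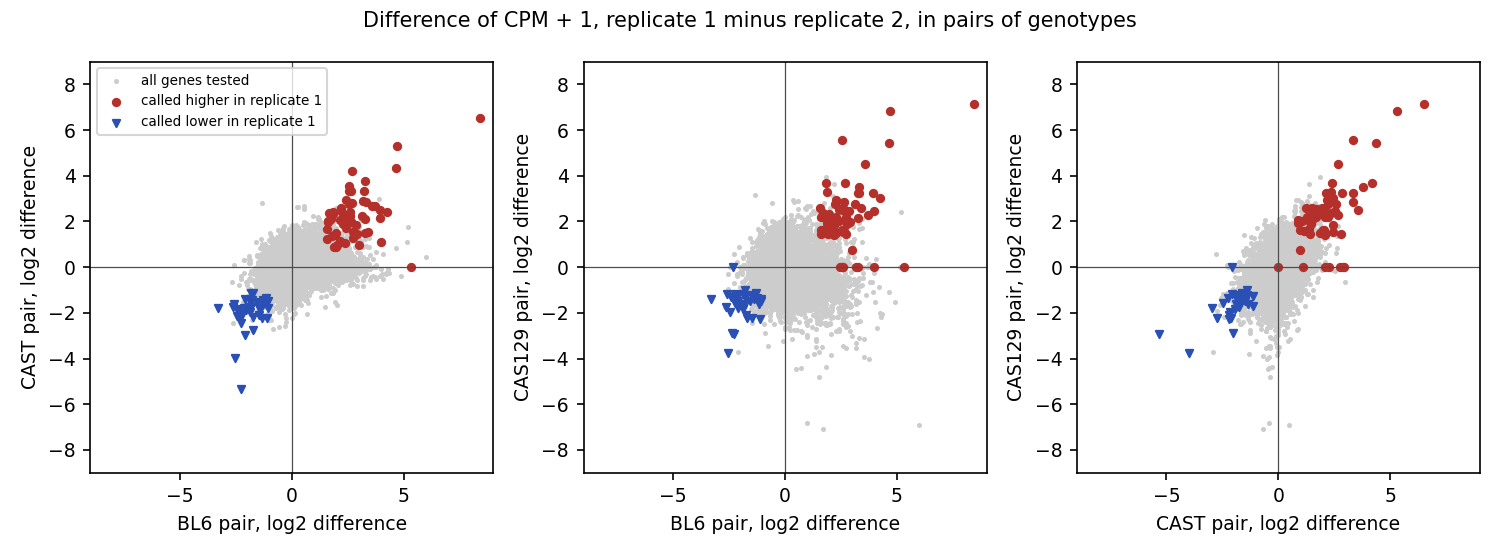
Log2 difference of CPM + 1, replicate 1 minus replicate 2, of each gene in one genotype pair against another, for all 13795 genes tested (grey), the 61 called higher (red circles) and the 36 called lower (blue triangles). The called genes lie in the upper right and lower left corners of all 3 panels, apart from those at 0 in the CAS129 or CAST pair, which had no count there.

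Klf4, a Krüppel-like factor of the naive network that also responds to serum, was higher in replicate 1. Its level was 738 and 163 CPM in replicates 1 and 2 of BL6, 320 and 143 CPM in CAST, and 378 and 126 CPM in CAS129. All replicate 1 libraries lay above all replicate 2 libraries, and the order of genotypes was BL6, CAS129, CAST in replicate 1 and BL6, CAST, CAS129 in replicate 2, with 1 library each. The fitted rise was 3.13-fold (log2 1.65, SE 0.26, adjusted p = 0.0351, 3 pairs), and 1.76 (adjusted p = 0.0526) with the GC and length offsets, where it did not pass. It also did not pass with limma voom, a filter of 5 CPM, or without the genes at 0 in a genotype. Klf4 (ENSMUSG00000003032) lies on chromosome 4 from 55527143 to 55532466 on the minus strand of GRCm38.

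Fos, an immediate early subunit of the AP-1 transcription factor, stood at 613 and 15.8 CPM in BL6, 116 and 33.5 CPM in CAST, and 96.8 and 17.5 CPM in CAS129. The replicate 1 libraries were all above the replicate 2 libraries, by ratios of 38.8 in BL6, 3.47 in CAST and 5.54 in CAS129. The fitted log2 difference of 3.12 (SE 0.62) did not pass (adjusted p = 0.073), nor did it with the GC and length offsets (adjusted p = 0.116). It passed in each of the 6 fits that left out 1 library, with differences from 2.10 to 3.97 and adjusted p from 3.7e-08 to 0.00962, and with DESeq2 (adjusted p = 3.93e-05). Those 6 fits are not independent: each rests on 2 pairs and 1 residual degree of freedom, and leaving out either library of a genotype leaves the same pairs. Fos (ENSMUSG00000021250) lies on chromosome 12 from 85473890 to 85477273.

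Aldoa, the aldolase of glycolysis, showed the reverse order. It stood at 3032 and 8030 CPM in BL6, 3068 and 6163 CPM in CAST, and 3826 and 5661 CPM in CAS129, so replicate 2 was higher in every pair and the groups did not overlap. The pair ratios shrank from 2.65 in BL6 to 2.01 in CAST and 1.48 in CAS129. The fitted difference of -0.99 (log2, SE 0.24) did not pass (adjusted p = 0.14), and was -0.74 (adjusted p = 0.0522) with the GC and length offsets. Aldoa (ENSMUSG00000030695, chromosome 7, 126795234 to 126800751) overlaps Fam57b on the other strand, and the sources used here do not give the strand setting. The same limit holds for Ndrg1, Ankrd37, Gpi1, Thbs1, Atf3, Fbn1, Ccn2, Col5a1, Anxa1, Ndufa4l2, Sema4c, Aire, Tagln, Vcl, Dusp1 and Mxi1 below, each of which overlaps a gene on the opposite strand.

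**Figure D3:**
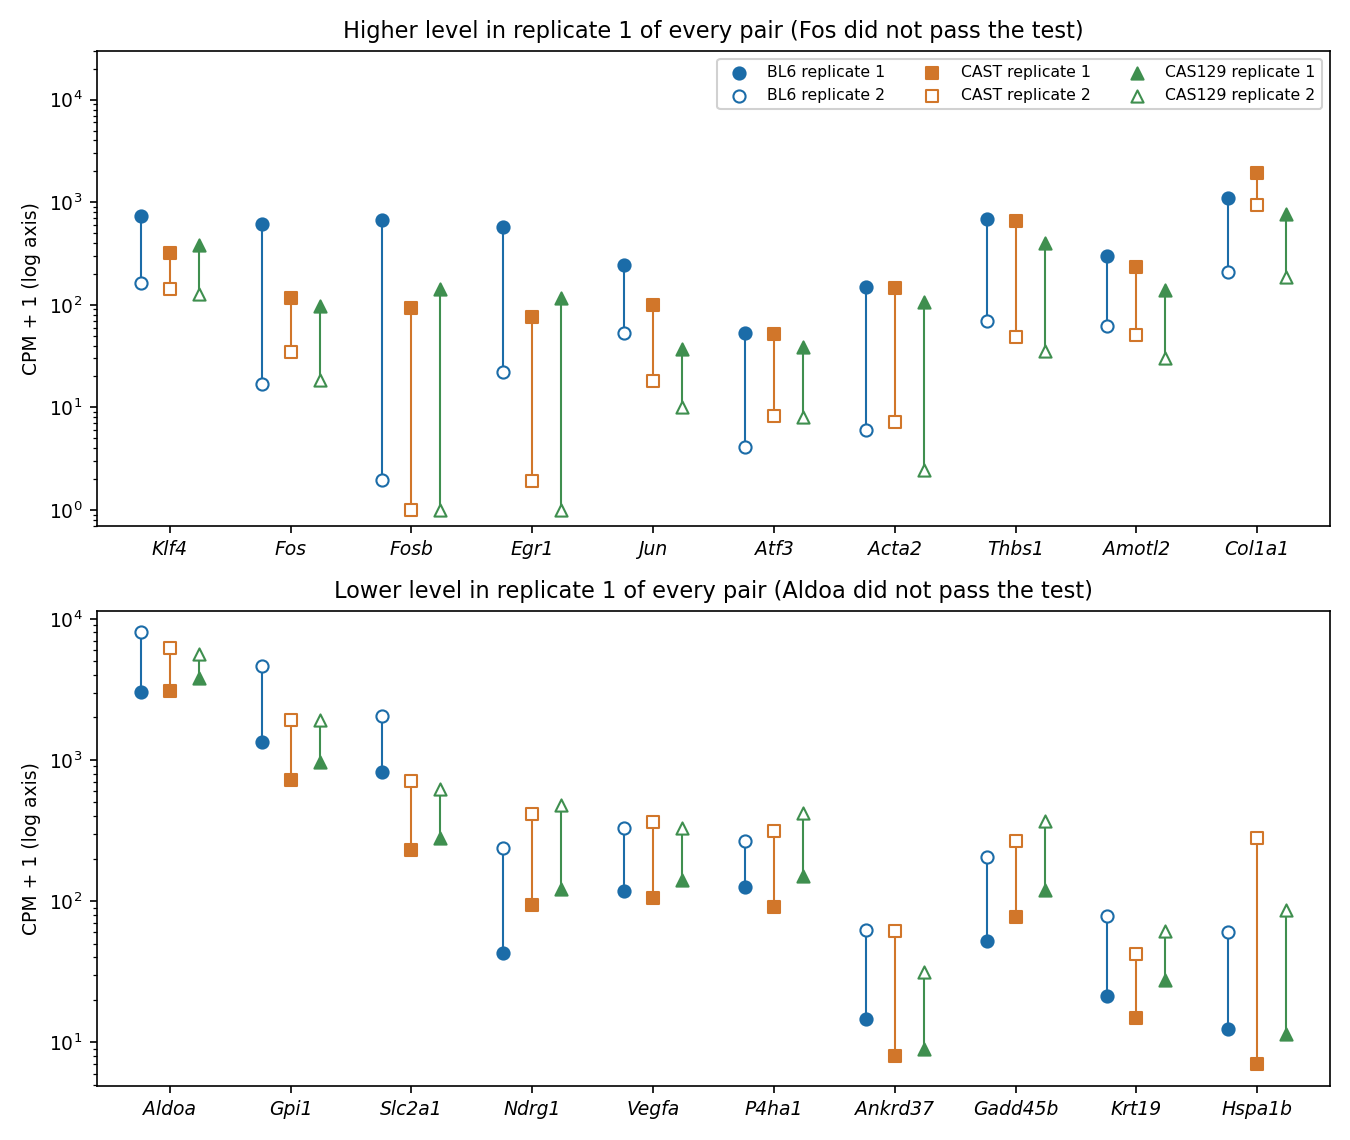
Level of 20 genes (CPM + 1, log axis) in each stem cell library, with filled symbols for replicate 1, open symbols for replicate 2 and a line joining the pair of a genotype. Every filled symbol lies above its open partner in the upper panel and below it in the lower panel. Fos and Aldoa did not pass the test.

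Immediate early genes were mostly higher in replicate 1. Of 24 tested, 5 were called higher and 1 lower. At an unadjusted p under 0.05, 15 were higher, beside 1567 of all 13795 genes in either direction. In every pair, 12 were at least 1.5-fold higher, 50% of the list against 2.33% of all genes. The median difference was 0.94 (log2), beside -0.02 over all genes tested. The members of this and the later lists were chosen with earlier results of these data known. Such shares and medians therefore describe the lists and are no test of them. Fosb, a partner of Jun proteins, went from 676 to 0.967 CPM in BL6, from 91.2 CPM to no count in CAST and from 141 CPM to no count in CAS129 (log2 9.83, SE 0.49, adjusted p = 0.000176). Its gene (ENSMUSG00000003545) lies on chromosome 7 from 19302696 to 19310051. Fosb was therefore close to off in all replicate 2 libraries and on in all replicate 1 libraries.

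Egr1, a zinc finger factor induced through SRF, stood at 573 and 21.1 CPM in BL6, 74.6 and 0.917 CPM in CAST, and 114 and 0 CPM in CAS129 (log2 5.97, SE 0.65, adjusted p = 0.0111). Its relative Egr2 had no count in any replicate 2 library and 4.9, 10.7 and 4.65 CPM in replicate 1 of BL6, CAST and CAS129. Against the floor of 3 counts over that group it was at least 54.7-fold higher. Jun, the partner of Fos in AP-1, stood at 245 and 52.3 CPM, 98.8 and 17.2 CPM, and 35.9 and 9.14 CPM in the 3 pairs, a 4.75-fold rise (log2 2.25, SE 0.25, adjusted p = 0.0111). The CAS129 replicate 1 library held less Jun than BL6 replicate 2, so the groups overlapped across genotypes while every pair moved the same way. Atf3, a stress-induced factor, had a log2 difference of 3.12 (SE 0.38, adjusted p = 0.0149), from 3.06 to 52.6 CPM in BL6, 7.2 to 51.3 CPM in CAST and 7.07 to 38 CPM in CAS129, read from replicate 2 to replicate 1.

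The list did not move as a block. Gadd45b, a stress-inducible gene of the growth arrest family, went the other way, at 50.9 and 203 CPM in BL6, 75.9 and 266 CPM in CAST, and 118 and 370 CPM in CAS129 (log2 -1.82, SE 0.22, adjusted p = 0.0163). That call ended without CAST replicate 1. Srf itself (171 and 102 CPM in BL6, 178 and 94.6 CPM in CAST, 84.5 and 36.6 CPM in CAS129) had a difference of 0.95 (adjusted p = 0.138), and Dusp1, a phosphatase that switches off MAP kinases, one of 1.03 (adjusted p = 0.0975). Both were chosen after their values were seen. With the GC and length offsets, 10 members were called higher and 1 lower (0.479% and 0.384% of all genes). When BL6 replicate 1 was left out the numbers were 13 and 1 (3.2% and 3.44% of all genes), and again 13 and 1 without BL6 replicate 2 (3.36% and 3.55%).

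Targets of SRF and YAP were higher in replicate 1. Their median difference was 2.46 (log2), or 2.43, 2.13 and 1.56 in the BL6, CAST and CAS129 pairs. Of 14 tested, 8 were called higher and none lower. In every pair, 9 were at least 1.5-fold higher (64.3% against 2.33% of all genes). Acta2, smooth muscle actin, stood at 148 and 5 CPM in BL6, 144 and 6.16 CPM in CAST, and 106 and 1.46 CPM in CAS129, a 33.5-fold rise (log2 5.07, SE 0.36, adjusted p = 0.00128). Its level was close to 100 CPM or more in every replicate 1 library and under 7 CPM in every replicate 2 library. Acta2 (ENSMUSG00000035783) lies on chromosome 19 from 34241090 to 34255590. Actg2, a related actin whose sequence is close enough that reads may be shared, was 23-fold higher (log2 4.52, SE 0.48, adjusted p = 0.0104), from at most 1.05 CPM.

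Amotl2, a YAP target that also restrains YAP, showed nearly the same ratio in each genotype: 301 and 61.4 CPM, 234 and 50.2 CPM, and 139 and 29.3 CPM (log2 2.25, SE 0.22, adjusted p = 0.00818). Axl, a receptor tyrosine kinase, stood at 91.8 and 8.3 CPM, 17.5 and 1.57 CPM, and 20.4 and 1.25 CPM (log2 3.60, SE 0.31, adjusted p = 0.00381). The matricellular genes Ccn1 and Ccn2, the classical YAP targets, were measured in only BL6 and CAST, since both had no count in CAS129. Ccn1 was 355 and 38.5 CPM in BL6 and 182 and 23.6 CPM in CAST (log2 3.07, SE 0.31, adjusted p = 0.0111). Ccn2 was 239 and 38.6 CPM, and 276 and 57.1 CPM (log2 2.45, SE 0.30, adjusted p = 0.0209), and lost its call without CAST replicate 1. The other called members, named after their values were seen, were Tagln (adjusted p = 0.0111), an actin-binding protein, and Myl9 (adjusted p = 0.0412), a myosin light chain. Members with the smallest differences were Ajuba (0.09), an adaptor at cell junctions, Tpm1 (0.18), a tropomyosin, and Vcl (0.38), the vinculin of focal adhesions, each with an adjusted p of 0.639 or more and also chosen after its values were seen.

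Fibroblast and feeder genes, mostly collagens and other matrix genes, were higher in replicate 1 as well. Of 20 tested, 7 were called higher and none lower, and the median was 1.76 (log2). In every pair, 9 were at least 1.5-fold higher (45% against 2.33% of all genes). Col1a1, a chain of type I collagen, stood at 1087 and 206 CPM in BL6, 1908 and 929 CPM in CAST, and 772 and 187 CPM in CAS129 (log2 1.83, SE 0.30, adjusted p = 0.0376). CAST replicate 2 held more Col1a1 than CAS129 replicate 1, so the groups overlapped. With the GC and length offsets its difference was 1.84 (adjusted p = 0.0611) and no longer passed, and the same was true of Col1a2, the partner chain, whose difference was 2.51 (adjusted p = 0.0259, and 0.0553 with the offsets). Lox, which crosslinks collagen, rose by 2.13 (SE 0.32, adjusted p = 0.0288) and Fbn1, a microfibril protein, by 2.53 (SE 0.28, adjusted p = 0.0111). Col5a1, a chain of type V collagen, rose by 2.13 (SE 0.29, adjusted p = 0.0209). The last called members were Ccn2, which is also in the SRF and YAP list, and Thy1, a surface glycoprotein named after its values were seen (adjusted p = 0.0301). All 7 calls held with RLE and upper-quartile scaling and with DESeq2. The filter of 5 CPM kept 3 and limma voom 1, that of Fbn1. The fit without genes at 0 in a genotype kept 4, and Ccn2, with no count in CAS129, was not tested there.

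The same genes mark fibroblasts, which some stem cell cultures contain as feeders, and the sources used here do not say whether feeders were present. The summed level of the 20 genes was 6160 to 7280 CPM in replicate 1 and 2550 to 4210 CPM in replicate 2. Of the 20 markers, 16 reached 1 CPM in every library, and Ccn2 and Twist1 were at 0 in at least 1 CAS129 library. Twist1, a mesenchymal transcription factor, stood at 7.32 and 10.3 CPM in BL6, 6.24 and 7.47 CPM in CAST, and 0.332 and 0 CPM in CAS129 (log2 -0.20, adjusted p = 0.915). By contrast, 19 of the 20 markers were fitted above 0 and 17 were above 0 in every pair (against 15.5% of all genes). Prrx1, another mesenchymal transcription factor, stood at 40.9 and 7.5 CPM in BL6, 16.2 and 9.43 CPM in CAST, and 8.63 and 0.831 CPM in CAS129 (log2 2.01, adjusted p = 0.135). The decorin gene Dcn was at most 14 CPM (log2 0.69, adjusted p = 0.568), and all 3 were chosen after their values were seen. The part of such cells in the matrix, SRF and YAP results was not tested, and in bulk RNA more cells of a type and more RNA per cell cannot be told apart.

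Glycolysis genes were lower in replicate 1. Of 17 tested, 2 were called lower and none higher. At an unadjusted p under 0.05, 11 were lower, beside 1567 of all 13795 genes in either direction. In every pair, 7 were at least 1.5-fold lower (41.2% against 1.72% of all genes). The median was -0.90 (log2), or -0.87, -1.01 and -0.57 in the BL6, CAST and CAS129 pairs. Slc2a1, the main glucose transporter, stood at 824 and 2032 CPM in BL6, 230 and 707 CPM in CAST, and 279 and 618 CPM in CAS129, a 2.56-fold lower level in replicate 1 (log2 -1.35, SE 0.22, adjusted p = 0.0376). Gpi1, glucose phosphate isomerase, stood at 1347 and 4614 CPM, 715 and 1910 CPM, and 963 and 1932 CPM (log2 -1.40, SE 0.24, adjusted p = 0.0433). Both calls held with the GC and length offsets (adjusted p = 0.0312 and 0.0144) and with DESeq2. Both ended without either CAST library, with limma voom, with a filter of 5 CPM and without the genes at 0 in a genotype, and that of Gpi1 also with RLE and upper-quartile scaling. Slc2a1 (ENSMUSG00000028645) lies on chromosome 4 from 119108711 to 119137983.

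Within the pathway, the steps were uneven. Ldha, which turns pyruvate into lactate, stood at 1700 and 2814 CPM, 1111 and 2590 CPM, and 1921 and 3213 CPM (log2 -0.90, adjusted p = 0.156), and Pfkl, a phosphofructokinase subunit, had -1.01 (adjusted p = 0.118). The hexokinases Hk1 and Hk2, which trap glucose in the cell, had differences of 0.18 (adjusted p = 0.824) and 0.04 (adjusted p = 0.965), while Pgk1 was measured in only BL6 and CAST (log2 -1.24, adjusted p = 0.158). These 5 genes were chosen after their values were seen. The summed level of the list was 12700 to 18200 CPM in replicate 1 and 23300 to 33000 CPM in replicate 2, with the narrowest gap in CAS129, where replicate 1 held 0.781 of replicate 2. Of the 17 genes, 9 were called lower without BL6 replicate 1 and 8 without BL6 replicate 2. Over all genes, those fits called 3.44% and 3.55% lower.

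Genes of the hypoxia response were lower in replicate 1. Of 14 tested, 5 were called lower and none higher in replicate 1, and 11 were lower in every pair (against 18.6% of all genes). At least 1.5-fold lower in every pair were 8 (57.1% against 1.72% of all genes). The median was -1.04 (log2), or -1.17, -1.17 and -0.95 in the 3 pairs. Ndrg1, a stress-responsive gene induced by HIF, stood at 42.1 and 236 CPM in BL6, 92.2 and 415 CPM in CAST, and 121 and 482 CPM in CAS129. All replicate 1 libraries lay below all replicate 2 libraries, by 5.6, 4.5 and 3.97-fold (log2 -2.21, SE 0.23, adjusted p = 0.0104). Ndrg1 (ENSMUSG00000005125, chromosome 15, 66929318 to 66969640) was also the one member whose call survived leaving out any single library.

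Vegfa, the growth factor of blood vessels, stood at 118 and 328 CPM, 103 and 360 CPM, and 141 and 326 CPM (log2 -1.50, SE 0.23, adjusted p = 0.0301), and again the groups did not overlap. P4ha1 and P4ha2, the collagen prolyl hydroxylases, were lower too, with log2 differences of -1.46 for P4ha1 (SE 0.24, adjusted p = 0.0376) and -1.39 for P4ha2 (SE 0.24, adjusted p = 0.0433). Ankrd37, a small HIF target, was lower by -2.40 (SE 0.32, adjusted p = 0.0192). Without CAST replicate 1 these 4 calls ended, and without CAST replicate 2 those of Vegfa, P4ha1 and P4ha2 ended, as did that of P4ha2 without CAS129 replicate 1. All 5 calls held with the GC and length offsets and with DESeq2, 4 with RLE and 3 with upper-quartile scaling. The filter of 5 CPM kept 2, the fit without genes at 0 in a genotype 3 and limma voom 1, that of Ndrg1. As many as 12 of the 14 were called lower when BL6 replicate 1 or 2 was left out, beside 3.44% and 3.55% of all genes. At the other end, Mxi1, a Myc antagonist chosen after its values were seen, had a fitted difference of -0.04 (adjusted p = 0.966).

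Collagen genes and the collagen prolyl hydroxylases thus went in opposite directions in the same libraries, with Col1a1 higher and P4ha1 lower in replicate 1 of every pair. Ndufa4l2, a HIF target of the mitochondrion that is not in the hypoxia list, was also lower, at 32.9 and 162 CPM, 13.4 and 78.3 CPM, and 36.7 and 110 CPM (log2 -2.14, SE 0.28, adjusted p = 0.0184), and lost its call without CAST replicate 1.

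**Figure D4:**
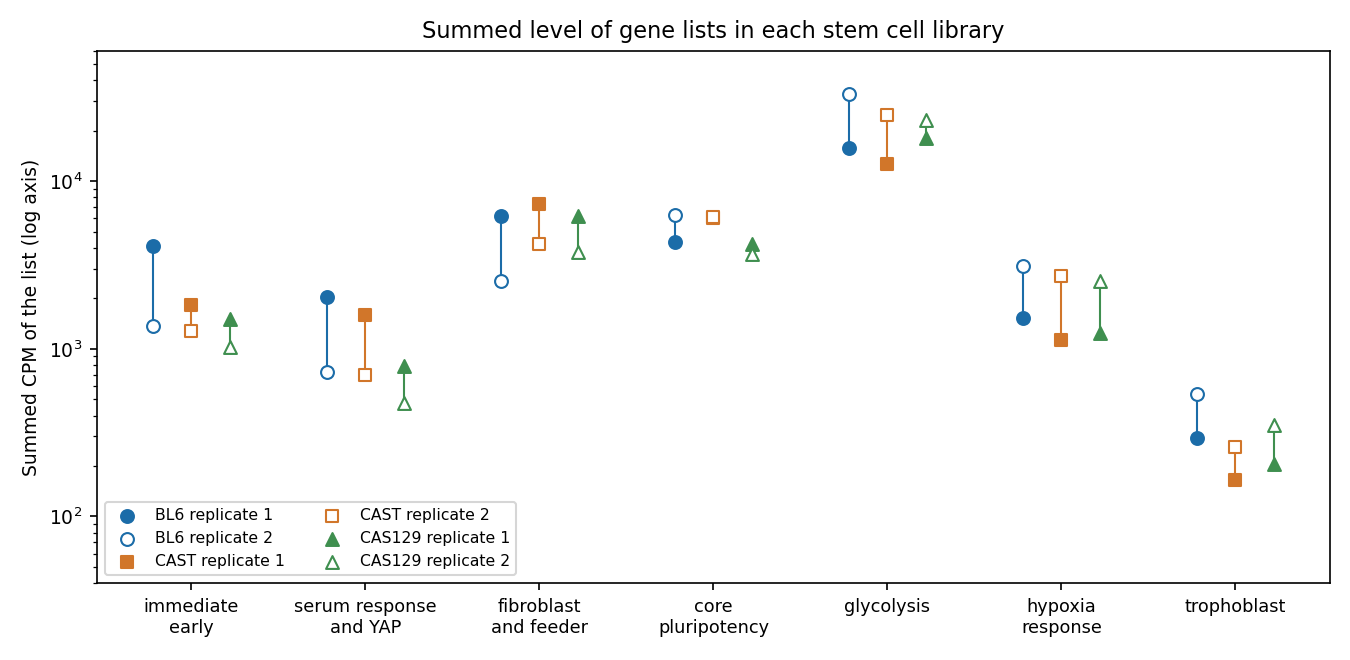
Summed CPM of the tested members of 7 gene lists (log axis) in each stem cell library, with filled symbols for replicate 1, open symbols for replicate 2 and a line joining the pair of a genotype. The immediate early, SRF and YAP and fibroblast sums are higher in every replicate 1 library than in its partner, and the glycolysis, hypoxia and trophoblast sums are lower. Core pluripotency has no common direction.

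Few genes of the pluripotency network passed the test. Of 20 naive genes tested, Klf4 alone was called, 10 were above 0 in every pair and 5 below, and the median was 0.15 (log2). Of all genes tested, 15.5% were above 0 in every pair and 18.6% below. Klf2, a Krüppel-like factor that also responds to serum and flow, stood at 675 and 306 CPM in BL6, 608 and 273 CPM in CAST, and 448 and 193 CPM in CAS129, and did not pass (log2 1.17, SE 0.21, adjusted p = 0.0546). It passed with the GC and length offsets (log2 1.44, adjusted p = 0.022), where Klf4 did not, and with DESeq2 (adjusted p = 9.32e-07). Tbx3, a T-box factor of the naive state, was 88.3 and 83.4 CPM in BL6, 479 and 138 CPM in CAST, and 468 and 176 CPM in CAS129 (log2 1.11, adjusted p = 0.253), so its difference lay in CAST and CAS129. Klf2 and Tbx3 were chosen after their values were seen. Of the naive genes, 5 were called higher and 1 lower without BL6 replicate 1, and 4 and 1 without BL6 replicate 2. Over all genes, those fits called 3.2% and 3.36% higher and 3.44% and 3.55% lower. None of the 8 core genes, 14 formative and primed genes or 11 genes of the LIF and STAT3 response passed. Pou5f1 was lower in replicate 1 of every pair and did not pass (log2 -0.68, adjusted p = 0.321).

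Among 11 genes of ERK feedback, which report signalling by FGF and other growth factors, Ier3 alone was called, and lower: 23.3 and 120 CPM in BL6 and 10.9 and 49.5 CPM in CAST, with no count in CAS129 (log2 -2.27, SE 0.32, adjusted p = 0.0301). That call ended without either CAST library. Spry2, an inhibitor of receptor signalling, had 0.91 (adjusted p = 0.214) and was at least 1.5-fold higher in every pair (chosen after its values were seen).

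Markers of other lineages were checked in the same way. Trophoblast genes were lower in replicate 1: 2 of 10 were called lower and all 10 had a fitted difference below 0. In every pair, 5 were at least 1.5-fold lower (50% against 1.72% of all genes), and the median was -0.99 (log2). The keratin Krt19 stood at 20.2 and 77.5 CPM in BL6, 13.9 and 40.9 CPM in CAST, and 26.7 and 60.7 CPM in CAS129 (log2 -1.56, SE 0.26, adjusted p = 0.0405), and lost its call when either CAST library was left out. Hand1, a transcription factor of placental giant cells, was 0.878 and 17.6 CPM, 0.353 and 3.67 CPM, and 0.498 and 2.91 CPM (log2 -3.61, SE 0.56, adjusted p = 0.0301), and did not pass without BL6 replicate 2. Both calls held with RLE scaling, DESeq2 and the GC and length offsets. Both ended with limma voom, a filter of 5 CPM and without the genes at 0 in a genotype. The call of Krt19 also ended with upper-quartile scaling. The summed level of the 10 genes was 166 to 293 CPM in replicate 1 and 258 to 540 CPM in replicate 2, with 7 of the 10 at 1 CPM or more in every library. Gata3, a defining factor of trophoblast chosen after its values were seen, was at most 4.35 CPM. Whether such cells were present, and their part in other results, was not tested.

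No member of the lists for primitive and visceral endoderm (13 tested), mesendoderm (8), polycomb-silenced ectoderm genes (9), neuronal genes (11) or blood and endothelium (4) was called. Their medians were 0.24, -0.35, -0.16, 0.41 and 0.15 (log2). No gene of the two-cell-like list was tested.

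Among stress and growth programmes, 1 heat shock gene and 1 mitochondrial gene passed. The 20 genes of the integrated stress and amino acid response had a median of 0.41 (log2), with 17 fitted above 0. In every pair 11 were above 0 (against 15.5% of all genes), and none of the 20 passed. With BL6 replicate 1 or 2 left out, 6 of them were called higher, beside 3.2% and 3.36% of all genes. Of 11 heat shock genes, Hspa1b alone was called, and lower: 11.3 and 59.2 CPM in BL6, 6 and 279 CPM in CAST, and 10.5 and 85.2 CPM in CAS129 (log2 -3.58, SE 0.57, adjusted p = 0.0356). It is a stress-induced chaperone with a near-identical copy that can share its reads, and the call ended with the GC and length offsets (adjusted p = 0.0781). Hsp90aa1, an abundant chaperone, was 4156 and 963 CPM in BL6, 5589 and 6580 CPM in CAST, and 3425 and 5578 CPM in CAS129 (log2 0.34, adjusted p = 0.843; chosen after its values were seen), so that BL6 went against the others.

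Ribosomal protein genes of the cytosol leaned lower in replicate 1 without passing. All 26 had a fitted difference below 0 with TMM and RLE scaling and 25 with upper-quartile scaling. Below 0 in every pair were 21, against 18.6% of all genes. The median was -0.55 (log2). It was -0.96 in BL6, -0.50 in CAST and -0.21 in CAS129, and -0.32 over the fit with GC and length offsets. Their summed level was 33600 and 64000 CPM in BL6, 32100 and 45200 CPM in CAST, and 45700 and 55000 CPM in CAS129. Of the 3 mitochondrially encoded genes tested, mt-Cytb, a subunit of complex III, was called higher from the BL6 pair alone (1742 and 42.2 CPM), as it had no count in CAST or CAS129, and DESeq2 did not call it. Summed over the 3 genes, levels were 3610 and 88 CPM in BL6 and 1460 and 799 CPM in CAST. In CAS129 the order was reversed, at 1.99 and 361 CPM, and the cause was not tested. Genes of replication and S phase (median 0.12) and of mitosis (-0.25) had no called member, nor did those of cholesterol synthesis (0.18) or the unfolded protein response (-0.02).

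**Figure D5:**
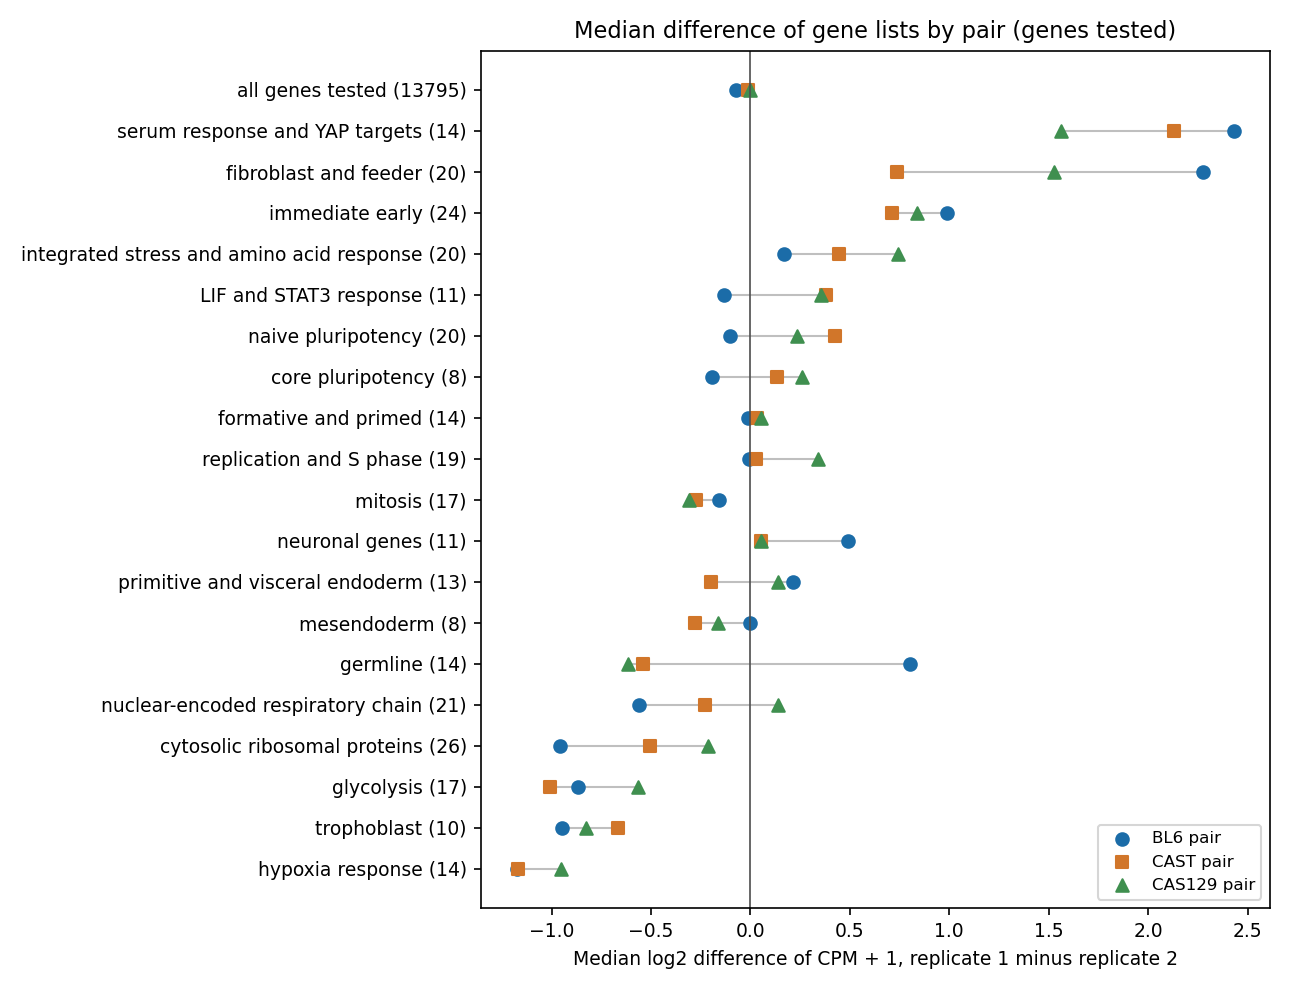
Median log2 difference of CPM + 1, replicate 1 minus replicate 2 (horizontal axis), of 19 gene lists and of all genes tested, with one symbol per genotype pair and the number of genes tested in brackets. The SRF and YAP, fibroblast and immediate early lists lie right of 0 in all 3 pairs, and the hypoxia, trophoblast, glycolysis and ribosomal protein lists left of it. The germline list is at 0.80 in BL6 and at -0.54 and -0.62 in CAST and CAS129.

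Of the 97 called genes, 33 were in the 38 lists and 64 were not. Thbs1, the matricellular protein thrombospondin that activates TGF-beta, had the lowest p of those, at 678 and 68.8 CPM in BL6, 654 and 47.3 CPM in CAST, and 400 and 34.5 CPM in CAS129. Its pair ratios were 9.85, 13.8 and 11.6 and its fitted rise 11.6-fold (log2 3.54, SE 0.25, adjusted p = 0.00128). Thbs1 (ENSMUSG00000040152) lies on chromosome 2 from 118111876 to 118127133, and its call survived leaving out any library. Further genes of matrix and adhesion followed. Col12a1, a fibril-associated collagen, rose by 3.29 (SE 0.38, adjusted p = 0.0134), Col8a1, a short-chain collagen, by 3.37 (SE 0.43, adjusted p = 0.0184), and Ccdc80, a matrix protein, by 3.32 (SE 0.45, adjusted p = 0.0209). Cemip, which breaks down hyaluronan, rose by 4.53 (SE 0.39, adjusted p = 0.00381), and the aggrecan-cleaving protease Adamts5 by 5.86 (SE 0.55, adjusted p = 0.00565), the latter from at most 0.208 CPM to about 10 CPM in each genotype.

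Other genes higher in replicate 1 included enzymes and signalling genes. Ptgs2, the inducible cyclooxygenase, stood at 81.3 and 11.1 CPM, 24.2 and 8.12 CPM, and 12.8 and 2.7 CPM (log2 2.24, SE 0.34, adjusted p = 0.0301). Anxa1, a membrane-binding annexin, rose by 2.5 (SE 0.30, adjusted p = 0.0134), Prss23, a serine protease, by 3.91 (SE 0.53, adjusted p = 0.0209), and the D-type cyclin Ccnd2 by 2.86 (SE 0.41, adjusted p = 0.026). Ccnd2 was 64.9 and 13.2 CPM in BL6, 30.8 and 4.32 CPM in CAST, and 7.3 and 0.208 CPM in CAS129. Cavin2, a caveola protein, was called higher (adjusted p = 0.0301) on 15.9 CPM in BL6 replicate 1 and at most 1.18 CPM elsewhere, and it did not pass without BL6 replicate 2 (adjusted p = 0.0822). Without BL6 replicate 1 or CAST replicate 1 it fell under the filter on low counts.

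The genes lower in replicate 1 outside the lists were of mixed function. Espn, an actin-bundling protein, stood at 46.5 and 193 CPM, 17.2 and 66 CPM, and 29.4 and 91.6 CPM (log2 -1.88, SE 0.24, adjusted p = 0.0184). Ace, the angiotensin-converting enzyme, had -2.20 (SE 0.29, adjusted p = 0.0191), Porcn, which lipidates Wnt proteins, -2.08 (SE 0.28, adjusted p = 0.0216), and Tle6, a gene of the oocyte and early embryo, -1.88 (SE 0.27, adjusted p = 0.0241). These 4 calls ended without CAST replicate 1. Tinagl1, a matrix protein, had -1.54 (SE 0.23, adjusted p = 0.0279), Cotl1, an actin-binding protein, -1.53 (SE 0.23, adjusted p = 0.0301), and the semaphorin Sema4c -1.70 (SE 0.28, adjusted p = 0.0376). Aire, a transcriptional regulator best known from the thymus, had -1.66 (SE 0.27, adjusted p = 0.0363). These last 4 calls ended without either CAST library, and that of Aire also with the GC and length offsets (adjusted p = 0.0585). Genes with actin or matrix roles were thus found on both sides.

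The called genes were mostly coding, and fewest of them lay among the genes of lowest GC content. Of the 61 higher genes 58 were protein-coding and of the 36 lower genes 34. The coding share of all genes tested is not given here. Median GC content was 51.4% in the higher and 55.4% in the lower genes, beside 50.4% over all genes tested. In the 5 equal classes by GC content, from lowest to highest, 10, 19, 19, 25 and 24 genes were called. Median transcript length was 4265 bases in the higher and 2982 bases in the lower genes, beside 3281 over all genes tested. Length itself moved with the fitted difference, whose median rose from -0.24 in the fifth of shortest transcripts to 0.19 in the fifth of longest.

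The genes whose pattern was most like the markers were found by Pearson correlation of log2(CPM + 1), centred on each genotype, over the 6 libraries and among 9339 genes with a mean of at least 10 CPM. With 3 pairs this measure compares only 3 differences, and high values are common. The genes most like Klf4 were Topors, Ahnak, Col5a1, Os9 and Ptgs2 (r of 0.9996 or more). Those most like Fos were Plk2, Abcb1b, Sirt1, Rpe and Pip4k2a (0.999 or more), and those most like Aldoa were Smyd3, Phf21a, Hsbp1, Smpd2 and Ascl2 (0.9998 or more). Likeness of pattern did not mean likeness of size: Os9 differed by 0.56, 0.31 and 0.43 (log2) in the 3 pairs and Klf4 by 2.17, 1.16 and 1.58.

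The same contrast was made in motor neurons, over replicates 1 and 2 of BL6, 129 and CAS129, whose RNA came from another kit. There, 0 of 14364 genes passed edgeR's test (0.0%), with 2464 at an unadjusted p under 0.05 and 615 called by DESeq2. In the stem cells 97 of 13795 passed edgeR's test, with 1567 at an unadjusted p under 0.05 and 348 called by DESeq2. The unadjusted and DESeq2 counts were thus larger in the motor neurons. In every motor neuron pair, 16 genes were at least 1.5-fold higher (0.111%) and 60 at least 1.5-fold lower (0.418%), against 322 and 237 in the stem cells. Fos stood at 59.7 and 66.6 CPM in BL6, 43.7 and 59.7 CPM in 129, and 16.4 and 15.1 CPM in CAS129 (log2 -0.20, adjusted p = 0.52). Klf4 had 0.42 (adjusted p = 0.491), Aldoa -0.04 (adjusted p = 0.92) and Ndrg1 -0.35 (adjusted p = 0.339). The list medians there were 0.38 for immediate early genes, 0.57 for SRF and YAP targets, 0.47 for fibroblast genes, -0.04 for glycolysis and -0.09 for hypoxia. Whether the contrast differs between the 2 cell types was not tested.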

How the data were processed

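Raw read counts per gene, whole numbers deposited by the authors, were used as given. Per the submitters' processing notes, STAR and the build GRCm38 (mm10) were used. No source used here gives the counting program, annotation or strand setting. By their names, 20 of the 28 count columns belonged to samples of the study, and the other 8 were left out. Gene names and positions came from GENCODE release 21 of the mouse (27031 of 27071 identifiers matched). Genes with at least 1 CPM in at least 2 of the 6 stem cell libraries were tested with edgeR 4.0.16 in R 4.3.3 (TMM scaling, quasi-likelihood test, 2-sided, Benjamini-Hochberg adjustment, threshold 0.05), with genotype and replicate number as terms. SE is the absolute log2 difference divided by the square root of F. Pair differences are of log2(CPM + 1), with no test. The fit was tested on simulated counts. No pair of libraries was 1 library deposited again: chi-square per degree of freedom within pairs was 25.1 or more. DESeq2 1.42.0, limma 3.58.1 and the other alternatives are described in the closing section.

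The members and the 38 gene lists were chosen with earlier results of these data known. Genes were named by rule: Klf4, Aldoa and Fos; up to 4 called members of a list with the highest mean CPM, or up to 2 members where none was called; the 15 higher and 15 lower genes with the largest smallest pair difference (protein-coding, mean of at least 10 CPM); the 10 and 10 called genes with the largest fitted difference; and the 5 genes most like each marker. Not every gene so named is printed.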

Additional observations from a re-analysis of the deposited data

Results flagged for a closer look

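The 14 germline genes tested moved in opposite directions: their median log2 difference was 0.80 in the BL6 pair and -0.54 and -0.62 in the CAST and CAS129 pairs, a gap of 1.42 between the highest and the lowest. With a single pair per genotype the difference was not tested. After correction for GC content and length the medians were 0.25, -0.42 and -0.23. Dazl, an RNA-binding protein of germ cells, stood at 14.9 and 3.47 CPM in replicates 1 and 2 of BL6, 371 and 819 CPM in CAST, and 93.1 and 288 CPM in CAS129. Hormad1, a meiotic chromosome protein picked with its values in view, had 21 and 1.94 CPM, 51.4 and 76.2 CPM, and 7.8 and 59.2 CPM.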

How the results depend on the processing

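The 97 calls became 78 with RLE and 80 with upper-quartile scaling, all among the 97, and these scalings moved the median of all genes by less than 0.1 (log2). DESeq2 called 348 genes (95 shared), limma voom 19, a fit of all genes with a count 280 and one with all 20 libraries 570 (92 shared). A filter of 5 CPM left 50 calls and leaving out genes at 0 in a genotype 52, both with fewer genes tested. Without the genotype term 0 genes passed edgeR's test, with 332 at an unadjusted p under 0.05. Leaving out 1 library gave 78 to 933 calls. The cause of these differences was not tested. The 559 genes at least 1.5-fold different in every pair became 260 with a pseudocount of 5, 1816 at 1.2-fold and 177 at 2-fold. Over the fits without 1 library, list medians ranged from 0.80 to 1.07 for immediate early genes, 2.29 to 2.78 for SRF and YAP targets, 1.14 to 2.11 for fibroblast genes, -0.99 to -0.67 for glycolysis, -1.32 to -0.91 for hypoxia and -1.18 to -0.89 for trophoblast. With GC and length offsets the immediate early median was 1.08 and that of trophoblast -0.76. In motor neurons DESeq2 called 615 genes, the fit of all genes with a count 981, and fits without 1 library 143 to 1238.

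Between genotypes, the fits with the replicate number as a block called 2160 genes for CAST against BL6 (1455 with no block), 4312 for CAS129 against BL6 (3553) and 2426 for CAS129 against CAST (1933). With DESeq2 and with all genes the first became 2222 and 2682. Without 1 library the 3 counts ranged from 226 to 2105, 2132 to 3657 and 1084 to 2476. With upper-quartile scaling the split of CAS129 against CAST went from 313 higher and 1620 lower to 580 and 1418. The correlations across genes of the pair differences were 0.355 for BL6 and CAST, 0.47 for CAST and CAS129 and -0.02 for BL6 and CAS129. Over the 9339 genes with a mean of at least 10 CPM they were 0.353, 0.536 and -0.106. After correction for GC content and length they were 0.402, 0.487 and 0.195, so only that of BL6 and CAS129 changed sign. A correlation across genes cannot decide whether the numbers pair the libraries, and the labels do not say.

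Of the 74 genes with a fitted value in the text, 6 changed sign somewhere, none of them called. Mxi1 became 0.019 with upper-quartile scaling and 0.02 with all 20 libraries, and Hk2 -0.043 and Twist1 0.156 with GC and length offsets. Over the fits without 1 library, Mxi1 ranged from -0.082 to 0.034, Hk2 from -0.183 to 0.206, Ajuba from -0.052 to 0.203, Tpm1 from -0.024 to 0.318, Hsp90aa1 from -0.48 to 0.945 and Twist1 from -0.384 to 0.07. The CAS129 pair held the fewest counts, and the effect of depth on the calls was not tested.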
